A study of Danio rerio with 12 samples.

Results

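The SoxB1 genes encode transcription factors that hold cells of the neural plate in a progenitor state. The zebrafish has 6 of them, sox1a, sox1b, sox2, sox3, sox19a and sox19b, and all probe sets that the annotation of the Affymetrix Zebrafish Genome Array gives to one of these symbols were taken. This gave 12 probe sets of the 15502 on the array that are not technical controls, and they cover 5 of the 6 genes. No probe set is annotated to sox1b, which was not analysed here.

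The 2 groups were control embryos and embryos kept in 10 nM morphine, an opioid, dissolved in their E3 medium from 5 h post fertilization (hpf). Both groups were of the wild-type AB strain, carried no genetic change and were collected at 24 hpf. Each group had 6 pools of about 100 whole embryos, and each pool was hybridised to 1 array. The pools hold every cell type of the embryo, so that fewer cells of a type and less RNA per cell cannot be told apart.

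SoxB1 proteins bind DNA through a high mobility group (HMG) domain, mostly next to a partner such as a POU factor, and they activate genes of the neural progenitor. They oppose the neurogenic basic helix-loop-helix factors, while the related SoxB2 proteins repress many of the same targets and the SoxC proteins act later, in differentiating neurons. In the zebrafish, sox19b mRNA is supplied by the mother and sox19b acts with pou5f3 and nanog when the zygotic genome is switched on, whereas sox2, sox3, sox19a and sox19b overlap in function in the early neural plate.

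Values are log2 signals made by robust multi-array average (RMA), so that a difference of 1 is a doubling of signal. A probe set is called when its adjusted p is under 0.1 in limma, a linear model with moderated variance fitted over all 15502 probe sets. The SoxB1 genes were selected on their differences between morphine and control in these same arrays, so their own changes are given as a description with no test. Signals of different probe sets cannot be ranked against each other as amounts of RNA, since each has its own probes.

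The arrays were close to each other, with medians of 5.81 to 5.85 and correlations of 0.990 to 0.999 between any pair. The 3′ minus 5′ difference of the actin control probe sets, which grows as transcripts or their copies become shorter, spanned 3.58 to 4.93 on control arrays and 3.51 to 5.32 on morphine arrays. It was lowest on control arrays 1 and 2 (3.58 and 3.62) and morphine array 1 (3.51). The same difference for GAPDH ranged from 1.15 to 1.70 and from 1.04 to 1.90.

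Of the SoxB1 genes, sox19b showed by far the largest difference between the groups. The brighter of its 2 probe sets read 6.21, 6.37, 6.51, 6.11, 6.51 and 6.60 on control arrays 1 to 6. It read 5.27, 5.47, 5.22, 5.56, 5.74 and 5.95 on morphine arrays 1 to 6. The highest morphine array lay 0.16 below the lowest control array, and the morphine array was lower at all 6 replicate numbers, by 0.55 to 1.29.

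The mean of this probe set was 6.39 ± 0.19 (SD, n = 6) in controls and 5.54 ± 0.28 (SD, n = 6) with morphine. The difference was -0.85 (SE 0.12), a 1.80-fold lower signal, and it was the 10th lowest of all 15502 differences. This rank is a description, since the same contrast chose the genes. Leaving out any 1 array moved the difference between -0.93 and -0.79. It was -0.88 with the actin difference as a covariate and -0.84 (SE 0.13) without the 3 arrays of lowest actin difference.

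The second sox19b probe set was dim. It read 4.70, 4.83, 4.38, 4.34, 4.62 and 4.44 on control arrays 1 to 6 and 4.43, 4.49, 4.22, 4.58, 4.41 and 4.32 on morphine arrays 1 to 6. The groups overlapped, and all 12 arrays lay under 5. The difference was -0.14 (SE 0.09), so on these arrays the large difference of sox19b rests on 1 probe set.

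The duplicate gene, sox19a, showed a small difference. Its single probe set read 10.20, 10.12, 10.14, 10.14, 10.36 and 10.28 on control arrays 1 to 6. It read 9.98, 9.98, 10.03, 9.99, 9.92 and 10.12 on morphine arrays 1 to 6. The groups did not overlap, although the gap between the lowest control array and the highest morphine array was only 0.0035.

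The sox19a mean was 10.21 ± 0.10 (SD, n = 6) in controls and 10.00 ± 0.07 (SD, n = 6) with morphine. The difference was -0.20 (SE 0.06), a 1.15-fold lower signal, with the morphine array lower at all 6 replicate numbers by 0.11 to 0.45. With 1 array left out it ranged from -0.23 to -0.17.

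**Figure D1:**
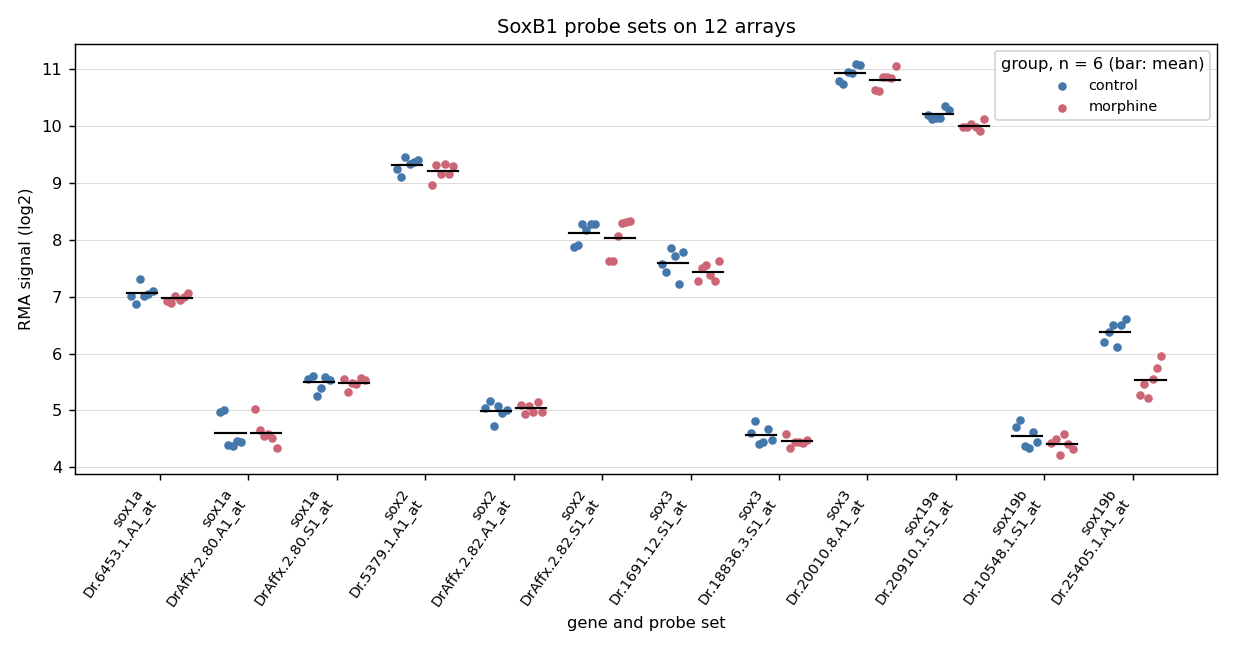
RMA log2 signal (vertical axis) of the 12 SoxB1 probe sets (horizontal axis) on the 6 control and 6 morphine arrays, with the points of each group in the order of replicates 1 to 6 and a bar at the mean. The groups separate at the brighter sox19b probe set, touch without crossing at sox19a and overlap at the other 10 probe sets, whose identifiers stand on the axis.

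The gene sox3, among the first SoxB1 genes to mark the future neural plate, had 3 probe sets. The brightest had a lowest, median and highest signal of 10.74, 10.95 and 11.10 in controls and of 10.61, 10.85 and 11.06 with morphine. The groups overlapped, but the morphine array was lower at all 6 replicate numbers, by 0.02 to 0.26, and the difference was -0.12 (SE 0.08).

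The middle probe set of sox3 ran from 7.23 to 7.85 (median 7.65) in controls and between 7.28 and 7.63 (median 7.45) with morphine, a difference of -0.16 (SE 0.10). The dimmest probe set of sox3 was under 5 on all 12 arrays, with medians of 4.54 and 4.45 and a difference of -0.12 (SE 0.07). Both overlapped between the groups.

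The gene sox2, which maintains neural progenitors through later development and in the eye and ear, also had 3 probe sets. The brightest ran from 9.10 to 9.45 (median 9.36) in controls and between 8.97 and 9.33 (median 9.23) with morphine, a difference of -0.11 (SE 0.07). Morphine was lower at 5 of 6 replicate numbers.

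The middle probe set of sox2 ran from 7.88 to 8.27 (median 8.22) in controls and between 7.62 and 8.33 (median 8.18) with morphine. Its difference was -0.09 (SE 0.13) and lay between -0.15 and -0.00 with 1 array left out. Within each group its 2 lowest arrays were replicates 1 and 2. Its dim companion, whose identifier differs from it only in the orientation letter, had medians of 5.02 and 5.03 and a difference of 0.04 (SE 0.07). The strand that each of these probe sets reads was not established here.

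The gene sox1a, active in the lens and in parts of the brain and spinal cord, had 3 probe sets. The brightest ran from 6.87 to 7.31 (median 7.04) in controls and between 6.89 and 7.06 (median 6.97) with morphine, a difference of -0.09 (SE 0.07). The other 2, again a pair that differ in the orientation letter, had means of 5.49 and 4.61 in both groups, with differences of -0.00 (SE 0.07) and 0.00 (SE 0.13).

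Across the family, 10 of 12 probe sets had a lower mean with morphine, where 46.2% of all probe sets did. The count includes 1 sox1a probe set at -0.00, and it ran from 9 to 12 over the 22 fits that held all 12 probe sets. The median difference of the 12 was -0.11, against 0.01 over all probe sets. No result is drawn from this count or median, since this contrast chose the genes and several of the probe sets share a gene. Leaving aside the brighter sox19b probe set and sox19a, the other 10 differences lay between -0.16 and 0.04.

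By limma, 2 of the 12 probe sets, those of sox19b and sox19a without overlap, were called, both lower. Over the whole array 6.85% of probe sets were called, 3.72% lower and 3.13% higher, in 1.9% the groups did not overlap with morphine lower, and in 6.98% morphine was lower at all 6 replicate numbers. With the replicate number as a block the same 2 were called, beside 9.98% of all probe sets. Nothing is read from these counts, since this contrast chose the genes. The count was 1, without sox19a, when control array 6 was left out or the deposited values were quantile normalized again.

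Among the 12 SoxB1 probe sets, brightness mostly went with how they varied between arrays. The same was not computed for bright and dim probe sets of other genes. The pattern is therefore not shown to be particular to the SoxB1 genes. The 12 probe sets were divided at a control mean of 6, a value chosen after the data were seen. The brighter sox19b probe set passed it through the control arrays only, with means of 6.39 in controls and 5.54 with morphine. The counts of pairs below depend on placing it among the brighter ones. The 7 brighter ones (1 of sox19b, that of sox19a, 2 of sox3, 2 of sox2 and 1 of sox1a) all had lower means with morphine. Nothing is read from that count, since the genes were selected on this contrast and some of the 7 share a gene. With group means subtracted, 20 of the 21 pairs of these 7 were positively correlated over the 12 arrays. Their r ran from -0.09 to 0.89 with a median of 0.49.

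The 5 dim probe sets were also positively correlated with each other, in 10 of 10 pairs with a median r of 0.62. Between bright and dim probe sets the sign mostly turned, with 29 of 35 pairs below 0 and a median r of -0.45. For the brighter one of the sox1a orientation pair, these r ran from -0.64 (middle sox3 probe set) to 0.31 (sox19a). For a bright and a dim probe set of the same gene, r ran from -0.75 (sox2) to 0.01 (sox19b). The bright pair of sox3 gave 0.20 and that of sox2 gave 0.58. These are descriptions over 12 arrays that share their hybridisation and normalization, and the probe sets are not independent of each other.

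The actin 3′ minus 5′ difference moved with the same division. With group means removed, its correlation over the 12 arrays was 0.83 for the brightest sox3 probe set, 0.82 for the middle and 0.81 for the brightest sox2 probe set. It was lower for the brighter sox19b probe set (0.45) and sox19a (0.40), and it was -0.90 for the dimmest sox1a probe set. The part of transcript length in these values was not tested, and such correlations were not computed for probe sets of other genes.

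With the actin difference as a covariate, the difference between the groups was -0.16 (SE 0.06) for the brightest sox3 probe set and -0.14 (SE 0.05) for the brightest sox2 probe set. It was -0.21 (SE 0.05) for sox19a. Without the 3 arrays of lowest actin difference, an alternative chosen after the data were seen, the same probe sets gave -0.17 (SE 0.08), -0.14 (SE 0.06) and -0.22 (SE 0.07) over 9 arrays. These sox3 and sox2 probe sets were called in 0 of 23 fits. Nothing is read from that count, since this contrast chose the genes. With the covariate the dim probe sets moved upward. The sox1a pair gave 0.07 (SE 0.07) and 0.01 (SE 0.06), and the dim sox2 probe set 0.06 (SE 0.06). The dim ones of sox3 and sox19b gave -0.10 (SE 0.06) and -0.12 (SE 0.08).

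**Figure D2:**
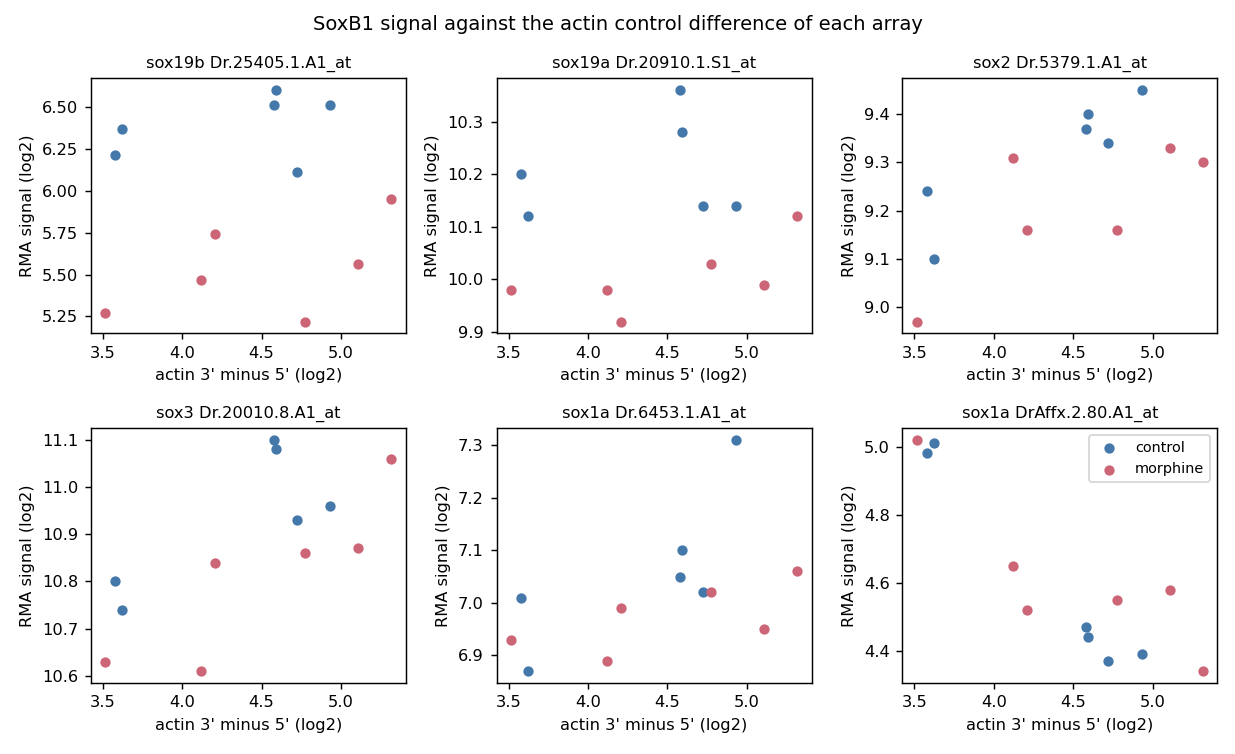
RMA log2 signal of 6 SoxB1 probe sets (vertical axes, each with its own range) against the actin 3′ minus 5′ difference of the array (horizontal axes, log2), with 6 control and 6 morphine arrays. The sox2 and sox3 probe sets rise along the axis and the dimmest sox1a probe set falls, while the sox19b groups stay apart over the whole axis.

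The rest of the Sox family was compared with the SoxB1 genes. Of 21 other Sox genes listed, 13 were on the array with 21 probe sets, and by limma 2 genes fell with morphine and 0 rose. Over all genes 8.62% had a called probe set, 4.91% a lower one and 3.75% a higher one. The 0 risers stand beside 3 of the 13 genes with an unadjusted p under 0.05 in either direction and 2 genes called by SAM, the permutation method of the study's methods. The median change over the 13 genes, each by its brightest probe set, was -0.01.

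The first was sox21b, a SoxB2 repressor that counteracts SoxB1 factors. Its signal ran from 6.93 to 7.24 (median 6.99) in controls and between 6.62 and 6.97 (median 6.77) with morphine. The change was -0.25 (SE 0.07, limma adjusted p = 0.0466), lower at all 6 replicate numbers with a slight overlap. The call was lost without control array 3, control array 6 or morphine array 4, with limma adjusted p up to 0.109.

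The second was sox11b, a SoxC factor of differentiating neurons. The first of its probe sets had means of 8.24 ± 0.11 and 7.97 ± 0.12 (SD, n = 6 each) without overlap, a change of -0.27 (SE 0.07, limma adjusted p = 0.0290). Its other probe sets gave -0.18 (SE 0.05, limma adjusted p = 0.0796) and -0.04 (limma adjusted p = 0.81), so the 3 probe sets of sox11b were not alike. The call of the second was lost in 8 of the 12 fits without 1 array (limma adjusted p up to 0.165), while that of the first held in all 12. Without the 3 arrays of lowest actin difference both called probe sets of sox11b lost the call (limma adjusted p = 0.101 and 0.151), which left 1 other Sox gene called.

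**Figure D3:**
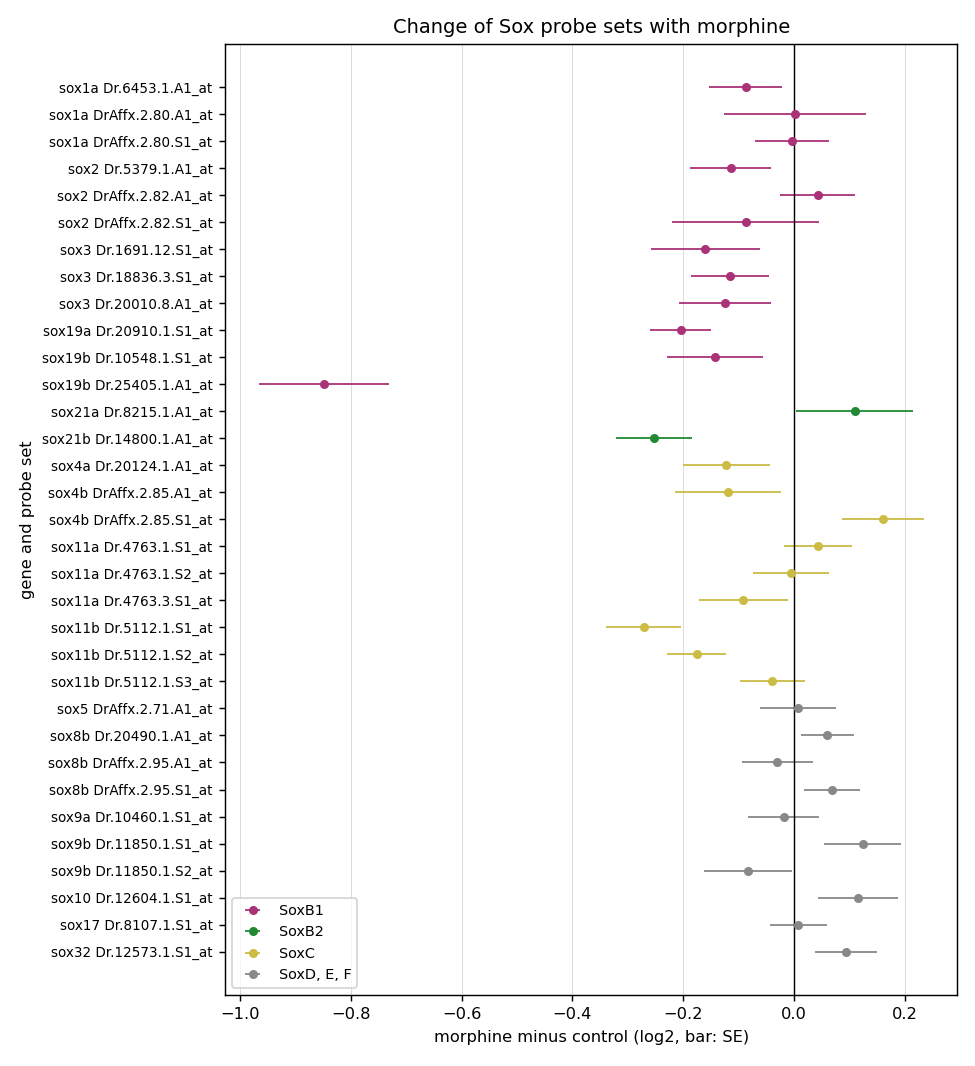
Morphine minus control difference (horizontal axis, log2, bars show the SE) of the 12 SoxB1 probe sets and the 21 probe sets of the other Sox genes (vertical axis), coloured by subfamily. The point at -0.85 is the brighter sox19b probe set, and all other Sox probe sets lie between -0.27 and 0.16.

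Partners and genes linked to SoxB1 factors were taken from lists, which were chosen with earlier results of these data known. Of the list of POU partner factors, which also holds nanog, 9 genes were on the array. Of these, 0 were called by limma or by SAM, with 0 at an unadjusted p under 0.05. Of the 15 genes with a known link to SoxB1 factors in the early embryo, 1 fell and 1 rose, and the median change was -0.00. The gene that fell was her3, a Hairy-related repressor that keeps neurogenin in check between proneural domains, with means of 7.94 ± 0.08 and 7.61 ± 0.15 (SD, n = 6 each) and a change of -0.33 (SE 0.07, limma adjusted p = 0.0084). A dim her3 probe set, under 5 on all 12 arrays, gave 0.07 (limma adjusted p = 0.685).

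The gene that rose was cyp26a1, which breaks down retinoic acid. Its means were 7.71 ± 0.13 and 8.00 ± 0.13 (SD, n = 6 each), a change of 0.29 (SE 0.07, limma adjusted p = 0.0275) that was higher at all 6 replicate numbers.

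Among neural progenitor genes, 38 were on the array, of which 4 fell, 1 rose and 33 were not called, with a median change of -0.04. The largest fall was that of dbx1b, a homeobox gene of interneuron progenitors, from 6.33 ± 0.09 to 5.88 ± 0.11 (SD, n = 6 each), a change of -0.45 (SE 0.06, limma adjusted p = 0.00031). The Notch target her4.2 (-0.32 and -0.31 on 2 probe sets that may share sequence with other her4 copies) and the neural stem cell receptor nr2e1 (-0.29) also fell. The glial glutamate transporter slc1a3a rose by 0.24, a call that was lost without any 1 of control arrays 1, 3, 4, 5 and 6 or morphine arrays 2, 3, 4 and 6 (limma adjusted p up to 0.191). The Notch ligand dlb fell by 0.23 (limma adjusted p = 0.0934), a call lost without any 1 of control arrays 1, 3, 4, 5 and 6 or morphine arrays 1, 2, 5 and 6 (limma adjusted p up to 0.199).

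Among neuron genes, 30 were on the array, of which 4 had a probe set that fell, 1 rose and 25 were not called, with a median change of 0.02. By the brightest probe set of each gene, 2 fell and 1 rose. Those that fell were the tubulin tubb5 (-0.38) and the neurogenic factor neurod6b (-0.36). A dimmer tubb5 probe set also gave -0.38 but was not called (limma adjusted p = 0.157). The microtubule regulator stmn1b gave -0.37 on the called probe set and -0.16 on its brightest one (limma adjusted p = 0.242). The vesicle fusion factor nsfa gave -0.22 on a dim called probe set and -0.08 on the brighter one (limma adjusted p = 0.676). The stmn1b call was lost with array weights (limma adjusted p = 0.132) and without control array 6 or morphine array 4 (limma adjusted p up to 0.117). The tau gene maptb rose by 0.55 (SE 0.09, limma adjusted p = 0.0017).

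Defining markers of the progenitor and neuron lists were not called. The changes were -0.15 (SE 0.07) for gfap and 0.08 (SE 0.05) for fabp7a (progenitors). They were 0.05 (SE 0.15) for elavl3 and -0.03 (SE 0.07) for snap25a (neurons). The control means of these markers were 7.68 to 9.84. Whether the share of progenitors or neurons in the pools changed was not tested. The mean signal of the progenitor list spanned 7.58 to 7.75 on control arrays and 7.52 to 7.74 on morphine arrays.

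Of the 14 eye and lens genes, 0 were called by limma or SAM, with 2 at an unadjusted p under 0.05, and of the 11 otic and placode genes 1 rose. This was dlx5a, a homeobox gene of the neural plate border, which rose by 0.22, a call lost without control array 5, control array 6 or morphine array 4 (limma adjusted p up to 0.112). Over these 6 neural and partner lists, 111 of 162 listed genes were on the array, 9 had a probe set that fell and 4 one that rose, or 7 and 4 by the brightest probe sets. A gene in more than 1 of them was counted once, and 8.62% of all genes were called. Nothing is read from these counts beside that share, since the lists were chosen with earlier results known.

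Lists of other tissues were counted in the same way, beside the 8.62% of all genes with a called probe set (4.91% lower, 3.75% higher). The muscle list (6 of 20 genes fell, 2 rose, or 5 and 2 by the brightest probe sets) and the yolk syncytial layer and liver list (8 of 19 fell, 1 rose) held the most calls. The mean signal of the yolk and liver list spanned 9.84 to 9.96 on control arrays and 9.64 to 9.82 on morphine arrays, without overlap, and that of the muscle list from 10.15 to 10.31 and from 10.05 to 10.26. Of the other lists, cell cycle had 3 that fell and 1 that rose of 23 (2 and 1 by the brightest probe sets), and blood 1 and epidermis 1 that fell of 13 each. In the notochord list 0 of 6 were called by limma or SAM, with 0 at an unadjusted p under 0.05. These lists too were chosen with earlier results known, so nothing is read from their counts beside the share over all genes. The part of other tissues in the SoxB1 values was not tested.

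**Figure D4:**
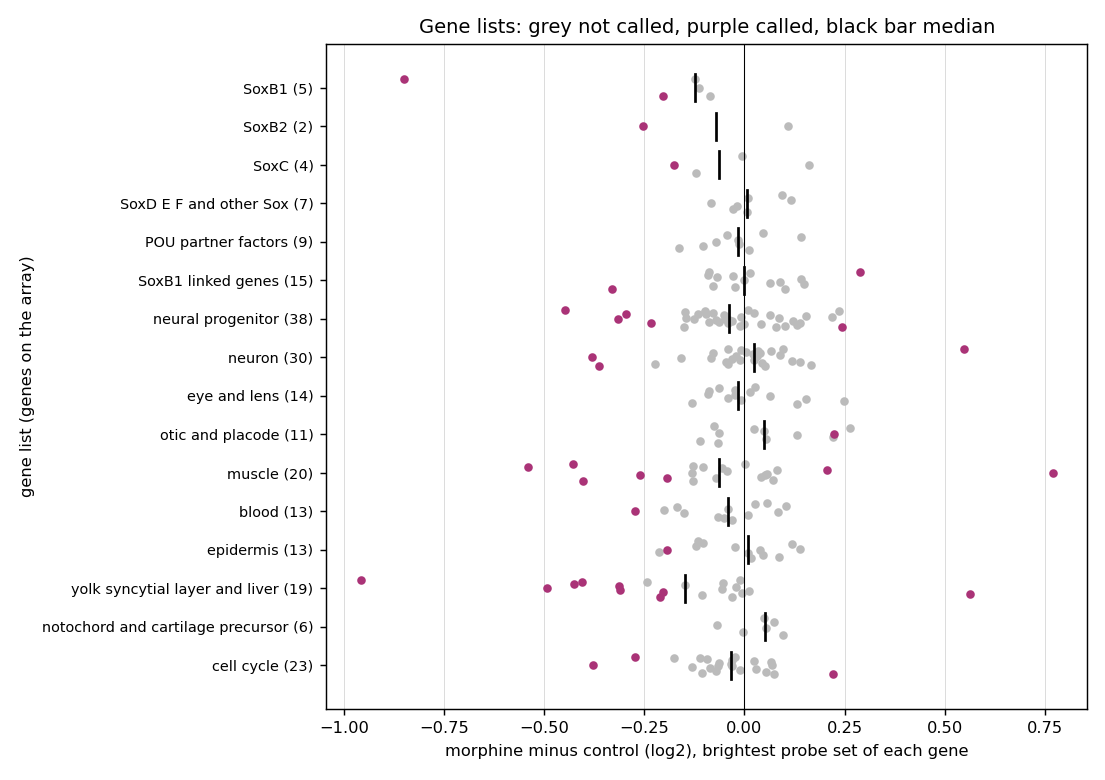
Morphine minus control difference (horizontal axis, log2) of each gene of 16 lists (vertical axis, with the number of genes on the array), by its brightest probe set, in purple where that probe set was called and grey where it was not, with the median as a black bar. The median of the SoxB1 list lies at -0.12, and sox19b lies at -0.85, while most genes of the neural lists lie within 0.25 of 0.

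The chromosome surroundings of the SoxB1 genes were read from the order of genes in the RefSeq annotation of assembly GRCz12tu, with the 5 array genes on each side. The genes lie on chromosomes 9 (sox1a), 22 (sox2), 14 (sox3), 5 (sox19a) and 7 (sox19b). Among 50 neighbours, 4 fell and 0 rose by limma, and SAM called 5, beside the 4.91% of all genes with a lower and 3.75% with a higher called probe set. The neighbours that fell were mpdu1b next to sox19b, txndc9 and uchl3 near sox1a and zic6 near sox3.

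The genes sox19a and sox19b lie in a duplicated stretch, with 4 pairs of neighbours whose symbols differ only in the final a or b. This comparison was chosen after the values were seen. Next to sox19b, mpdu1b, a gene of N-glycosylation, fell from 7.56 ± 0.11 to 6.54 ± 0.21 (SD, n = 6 each), a change of -1.03 (SE 0.09, limma adjusted p = 2.4e-06). Next to sox19a, mpdu1a gave -0.10 (SE 0.07, limma adjusted p = 0.56).

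The other pairs were not called. The translation factor eif4a1b next to sox19a gave -0.08 and eif4a1a next to sox19b gave -0.15 and -0.17 on 2 probe sets. The SUMO protease senp3a gave 0.07 and senp3b -0.19, and phf23a gave -0.01 and -0.06 and phf23b -0.03. Further out from sox19b, her8a (0.12 and 0.08), mblac1 (0.07 on its brighter probe set), plscr3b, ap1s1, zgc:77439 and hsbp1a were not called.

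In their stretch, sox19b and mpdu1b were the 2 genes with large differences, and whether these share a cause was not tested. With group means removed, r between the brighter sox19b probe set and that of mpdu1b over the 12 arrays was 0.01. Over the 13 neighbouring probe sets r with sox19b ran from -0.83 (mblac1, brighter probe set) to 0.62 (plscr3b), and it was 0.21 and 0.32 for eif4a1a.

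**Figure D5:**
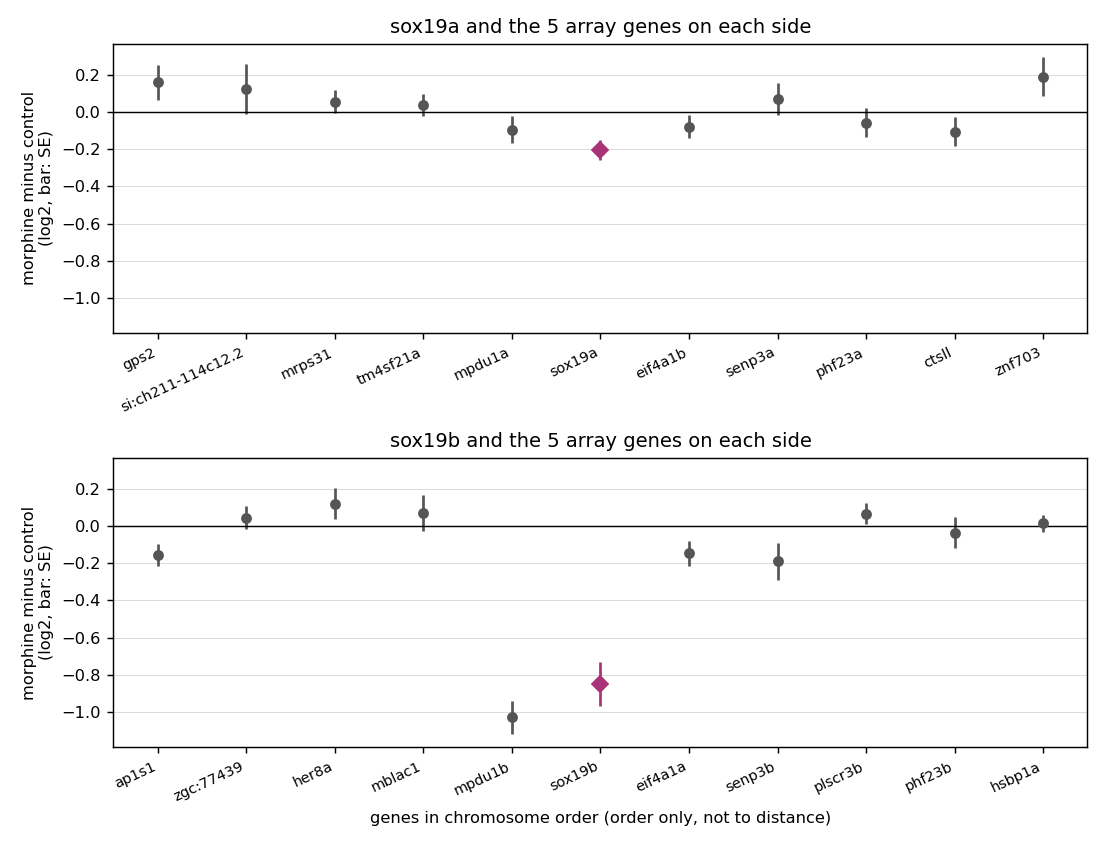
Morphine minus control difference (vertical axis, log2, bars show the SE) of sox19a (above) and sox19b (below), as diamonds, and of the 5 array genes on each side in chromosome order, as circles, by the brightest probe set of each gene (horizontal axis, order only). Below, mpdu1b at -1.03 and sox19b at -0.85 lie apart from the other 9 genes, while above all genes lie between -0.20 and 0.19.

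Near sox1a, txndc9, the next array gene, fell from 9.79 ± 0.14 to 9.04 ± 0.19 (SD, n = 6 each), a change of -0.75 (SE 0.09, limma adjusted p = 6.3e-05) without overlap, whereas the sox1a probe sets gave -0.09 to 0.00. Further out uchl3, an ubiquitin hydrolase, fell by 0.19 (limma adjusted p = 0.0372). Near sox3, zic6, a zinc finger gene of the neural plate and neural crest, fell by 0.27 (limma adjusted p = 0.0682), a call lost without any 1 of control arrays 4, 5 and 6 or morphine arrays 2 and 4 (limma adjusted p up to 0.153).

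The genes whose arrays were most like those of the brighter sox19b probe set were found among 10794 probe sets with a single gene. Over the 12 arrays these were cpdp (r = 0.96), tubb5 (0.95), ntmt1 (0.95), fah (0.93) and tmem107 (0.93). All 5 had lower means with morphine, from -0.32 for cpdp to -1.17 for fah, as a high r with a probe set that differs between the groups requires.

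With group means removed the order was another. The highest r were those of the mitotic kinesin kif2c (0.95), pias2 (0.92), hadhab (0.91), uspl1 (0.91) and tubb2 (0.90). Their differences between the groups lay between -0.03 and 0.03. The arrays share their hybridisation and their actin difference, and Spearman's rho named 3 of the 5 genes again in each case.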

How the data were processed

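Total RNA of 6 control and 6 morphine pools of whole zebrafish embryos was hybridised to Affymetrix Zebrafish Genome Arrays, and RNA with an integrity number (RIN) over 8 was used. The authors deposited log2 signals made with RMA, which corrects background, applies quantile normalization over the arrays and summarises probes to probe sets. The version of RMA is not given in the sources used here, and the probe intensities were not used. Such a scale shrinks the differences of dim probe sets, and precision is set by the number of arrays. Nothing in the labels says more of the replicates than that they are biological, so p-values measure the spread between these pools.

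Of 15617 probe sets, 115 Affymetrix controls were left out and 15502 were compared between groups with limma 3.58.1 (R 4.3.3) in two-sided tests with Benjamini-Hochberg adjustment over all of them and a call at an adjusted p under 0.1. That is the false discovery rate of the methods, whose own test, SAM, was run as an alternative with 100 permutations. The SE of a difference is the moderated one of this fit. Plots were made in Python 3.11.15 with matplotlib 3.10.9. The limma and SAM steps were tested on simulated data of the same size before they were run.

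By the array annotation, 10795 probe sets have 1 gene, and 8723 of the 8796 genes were found in the RefSeq annotation of GRCz12tu, which gave names and gene order only. Synonyms were used to match lists to probe sets, except where the synonym is the current symbol of another listed gene. The rule for duplicates was set after a mismatch was seen. A gene counted as called where any of its probe sets was called, and its brightest probe set gave its value in list medians and mean signals.

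The SoxB1 genes, gene lists and tests were chosen with earlier results of these data known. The text names every SoxB1 probe set, other Sox genes that were called, up to 4 called genes with the largest change in each neural, partner and linked list, the 5 array genes on each side of sox19b, called neighbours of the other SoxB1 genes and the 5 most alike genes. The 4 paired neighbours of sox19a and the defining markers gfap, fabp7a, elavl3 and snap25a were named beside these, as were dlb and nsfa, after their values were seen.

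Control and morphine arrays of the same replicate number had correlations of 0.23 to 0.47 after group means were removed. All 6 were above 0.1, so the numbers were taken to pair the samples, although neither the labels nor the methods give them a meaning. No correlations of arrays with different numbers are set beside these, so the pairing is an assumption. The fit without pairs was kept as the main one, and the replicate block was an alternative. With the block the SE was 0.07 for the middle sox2 probe set. It was 0.05 for the brightest and 0.07 for the middle sox3 probe set, all smaller than without pairs. For sox19a and the dim probe sets of sox2 and sox3 it was slightly larger. The other alternatives were array weights, trend and robust variance, quantile normalization again, arrays centred on their median, a filter that kept probe sets reaching a log2 signal of 5 on 6 or more arrays, leaving out probe sets with shared-sequence suffixes, the actin difference as a covariate, a stricter threshold of 0.05 and the omission of each array singly. The fit without the 3 arrays of lowest actin difference was chosen after seeing the data.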

Additional observations from a re-analysis of the deposited data

Results flagged for a closer look

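None of the 12 SoxB1 probe sets had an array far from the rest of its group. Among 68 probe sets named or compared, 136 groups of 6 arrays were examined for 1 array whose gap to its neighbour was past Dixon's critical value, and 5 were found, where chance gives about 1 in 20. The array of control replicate 1 was highest for her3 at 8.09. Morphine replicate 4 was highest for maptb at 7.62 and for the dim probe set of her8a at 3.64. Morphine replicate 2 was lowest for dao.1, a gene of the yolk and liver list, at 9.42. Control replicate 4 was lowest for tubb2 at 7.85.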

How the results depend on the processing

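The SoxB1 differences moved by less than 1 SD between replicates under every alternative that gave a value. Stability cannot be read from this. Several alternatives leave the difference itself unchanged, and leaving out 1 of 6 arrays can move a group mean by only a part of its SD. With the replicate block, the brighter sox19b probe set kept its difference of -0.85 with an SE of 0.08. The called probe sets rose from 1062 to 1547 and the called neural and partner genes from 13 to 16. No SoxB1 call changed, from which nothing is read, since this contrast chose the genes. SAM called 1119 probe sets. The filter on dim probe sets left 9 of the 12 SoxB1 probe sets. The number of other Sox genes called was 2, and ranged from 1 to 2 with 1 array left out (1 without control replicate 3, control replicate 6 or morphine replicate 4) and was 1 without the 3 arrays of lowest actin difference, which leaves fewer arrays. Differences close to 0 changed sign in some fits. Among the SoxB1 probe sets, with 1 array left out, those of the orientation pair of sox1a ranged from -0.080 to 0.081 (dimmer, below 0 in 6 of 12 fits) and from -0.050 to 0.030 (below 0 in 7), and the dim one of sox2 from -0.0094 to 0.076. With 1 array left out, zgc:77439 ranged from -0.0029 (without control replicate 5) to 0.069, phf23b from -0.090 to 0.021 (without morphine replicate 1) and hsbp1a from -0.0014 (without morphine replicate 5) to 0.036. Without the 3 arrays of lowest actin difference, the third probe set of sox11b gave 0.018 and the dimmer one of mblac1 gave -0.0074. The cause was not tested. Over the named genes, a call was lost 51 times with 1 array left out and 13 times under the other alternatives. Genes whose pattern was most like sox19b were given as values with no test, a choice made after their values were seen. Dim probe sets limit what can be said of the second sox19b probe set.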
